A study of Mus musculus with 5 samples.

Results

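The regions described here are peaks that were called for E2F3A and overlapped no peak called for E2F1 or E2F3B. They come from chromatin immunoprecipitation followed by sequencing (ChIP-seq) of mouse embryonic fibroblasts, cells grown from the connective tissue of mouse embryos. They were chosen by overlap: an E2F3A peak was kept when it shared no base pair with a peak of either other list, in mm9 coordinates. This left 1100 of the 1998 E2F3A peaks, or 55.1% (95% Wilson interval 52.9 to 57.2), among 10489 peaks in the 3 lists. The same rule applied to the other lists left 2082 of 3787 E2F1 peaks (55.0%) and 2784 of 4704 E2F3B peaks (59.2%). The share of unshared E2F3A peaks was therefore close to that of the other lists, and nothing was read from it. Because measured peak positions selected the regions, their lack of overlap is the rule and not a result.

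E2F proteins are transcription factors that bind DNA together with a DP partner and are held in check by the retinoblastoma family of pocket proteins. The E2f3 gene gives rise to 2 products from separate promoters, E2F3A and E2F3B, which have the same DNA-binding domain and differ at the N-terminus. E2F3A is usually grouped with E2F1 among the activators of genes for DNA replication and entry into S phase, whereas E2F3B lacks the N-terminal stretch of E2F3A.

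Each protein was stably overexpressed in proliferating, unsynchronized fibroblasts of a mixed strain background (FVB/NT, 129S1/Svlmj, C57BL/6NT). E2F3A and E2F3B were precipitated with the same antibody against E2F3, and E2F1 with an antibody against E2F1. A list is named here by the overexpressed protein, and E2F made from the cells' own genes cannot be told apart from it. The antibody to E2F1 differed from that to E2F3, so a difference between the E2F3A and E2F1 lists cannot be assigned to the protein or the antibody. The 2 knockout samples of the series, with genotypes 1-/- and 3-/-, were not analysed here. There was 1 library for each protein, so no spread between replicates existed and no comparison below was tested. Intervals cover counting error of peaks only, and the depth behind a peak was unknown because the lists hold no read counts. A region counts as unshared when no peak was called, and the protein may still have been bound there. The genes, motifs and sequence under the peaks were not analysed here, as no mm9 genome or annotation was used.

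The boundary of the rule fell where few peaks lay. Just inside it, 5 unshared E2F3A peaks had a gap of at most 100 bp to a peak of another list. The peak on chromosome 6 from 51220191 to 51220537 (347 bp) ended 21 bp from an E2F1 peak, with the nearest E2F3B peak 92.1 kb away. The peak on chromosome 12 from 119539684 to 119539963 (280 bp) was 34 bp from an E2F1 peak and 455 bp from an E2F3B peak. The peak on chromosome 5 from 100947108 to 100947484 (377 bp) was 60 bp from E2F3B and 88.3 kb from E2F1. The first 2 of these adjoined an E2F1 peak and the third an E2F3B peak. The peak on chromosome 17 from 24832794 to 24833130 (337 bp) was 68 bp from E2F3B, and the peak on chromosome 10 from 98761013 to 98761286 (274 bp) was 100 bp from E2F1. Just outside the rule, 3 E2F3A peaks were left out for an overlap under 50 bp, all with E2F1. They lay on chromosome 8 from 98331896 to 98332144 (overlap of 12 bp), chromosome 4 from 126754135 to 126754499 (33 bp) and chromosome 1 from 95582843 to 95583201 (46 bp). The next smallest overlaps were with E2F3B, at 90 bp on chromosome 13 from 13682437 to 13682820 and 104 bp on chromosome 5 from 136612065 to 136612392. Only 15 of the 898 shared E2F3A peaks overlapped by under 150 bp, against a median overlap of 344 bp, so most shared peaks lay well past the boundary.

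The median width of the unshared E2F3A peaks was 331.5 bp (interval 327 to 336, n = 1100), with quartiles of 283 and 362 bp and all of them between 140 and 619 bp. The 898 shared E2F3A peaks had a median of 362 bp (356 to 368) and reached 956 bp. The groups barely differed at the narrow end, where the 10th percentile was 244 bp for unshared and 247 bp for shared peaks. They differed at the wide end, where the 90th percentile was 380.1 bp against 544 bp. The SD of width was 58.4 bp among the unshared peaks and 121 bp among the shared ones. Peaks called for E2F3B only were close to the unshared E2F3A peaks in median, at 337 bp (334 to 340), and in 10th percentile, at 238 bp. Their 90th percentile was 467 bp and their SD 97.7 bp. Width can itself affect whether 2 peaks overlap, so this difference is a description of what the rule selected. With all peaks set to the median E2F3A width of 341 bp, a run added after seeing the data, 1109 E2F3A peaks were unshared. What produced the difference in width was not tested.

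**Figure D1:**
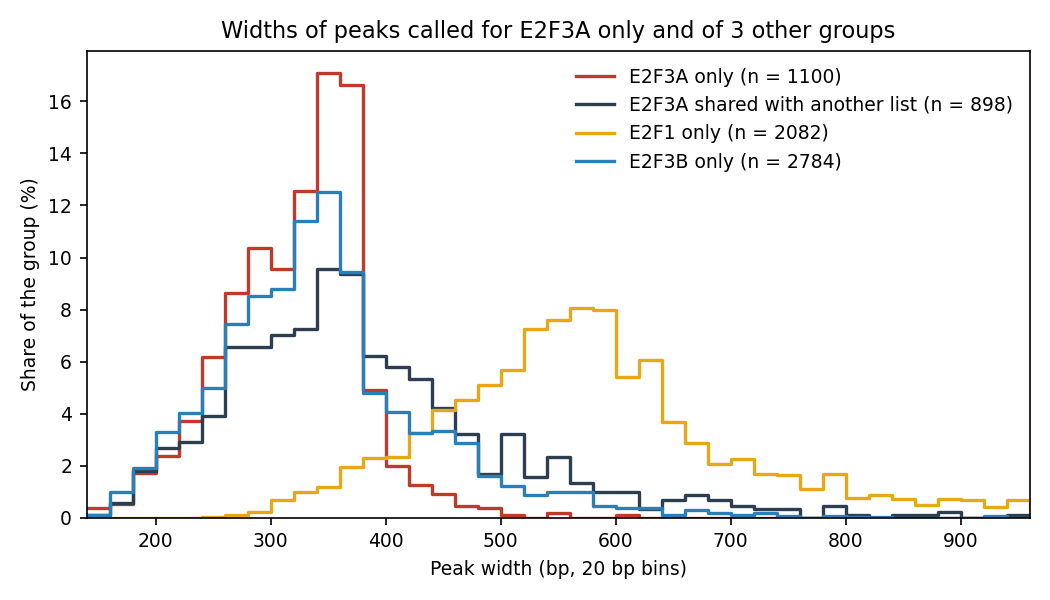
Share of each group of peaks (%) by peak width in 20 bp bins. Peaks called for E2F3A only are red, and E2F3A peaks shared with another list are dark. Peaks called for E2F1 only are yellow, and those called for E2F3B only are blue. The 4 groups are drawn up to 960 bp. Peaks called for E2F1 only go on to 2011 bp and those called for E2F3B only to 1092 bp. The red curve drops after 379 bp, from 183 peaks at 360 to 379 bp to 54 peaks at 380 to 399 bp.

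The upper edge of the width distribution was steep. There were 188 unshared E2F3A peaks of 340 to 359 bp and 183 of 360 to 379 bp, but 54 of 380 to 399 bp and 22 of 400 to 419 bp. The drop was singled out after the values were seen. It was also present, less steeply, in peaks called for E2F3B only, with 263 peaks at 360 to 379 bp and 133 at 380 to 399 bp. Shared E2F3A peaks numbered 84 and 56 in these bins. Peaks called for E2F1 only numbered 41 and 48, but these bins lie below their 10th percentile of 420 bp.

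Among all E2F3A peaks, those of 320 to 379 bp were in no other list most often, at 509 of 744 or 68.4% (65.0 to 71.7). Narrower peaks had overlapping intervals, at 63.4% (59.1 to 67.6) for 260 to 319 bp and 61.4% (54.8 to 67.6) for 200 to 259 bp. For 140 to 199 bp it was 56.9% (43.3 to 69.5), so the clear fall was only above 379 bp. The share was 36.6% (30.8 to 42.8) at 380 to 439 bp, 18.8% (12.4 to 27.5) at 440 to 499 bp, and 4 of 141 or 2.84% (1.11 to 7.07) at 500 bp and above. Peaks of at least 500 bp made up 0.364% of the unshared E2F3A peaks, 15.3% of the shared ones and 6.61% of the peaks called for E2F3B only. Shared peaks were not all wide. The 66 shared with E2F1 and not E2F3B had a median width of 343 bp (320 to 364), and the 188 shared with E2F3B and not E2F1 had 340.5 bp (326 to 356). The 644 present in both other lists had 373.5 bp (364 to 384). The median intervals of the first 2 classes overlapped that of the unshared peaks, and the interval of the third did not. At the wide end the first 2 classes still differed from the unshared peaks. Their 90th percentiles were 444 and 446.3 bp, against 380.1 bp for unshared peaks.

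The 4 unshared peaks of at least 500 bp, and the next in width, lay at varied distances from the other lists. The widest was on chromosome 5 from 72950549 to 72951167 (619 bp), 798 kb from the nearest E2F1 peak and 1.54 Mb from the nearest E2F3B peak. The others were on chromosome 2 from 32426044 to 32426592 (549 bp), chromosome X from 73260610 to 73261157 (548 bp), chromosome 10 from 39533410 to 39533919 (510 bp) and chromosome 5 from 92471704 to 92472198 (495 bp). The gap to the nearer of the other lists was 53.7, 599, 71.6 and 40.6 kb in this order. The narrowest were 140 bp on chromosome 8 from 93195263 to 93195402, 141 bp on chromosome 11 from 43323846 to 43323986 and 157 bp on chromosome 14 from 118819304 to 118819460. None of these 8 peaks at the ends of the width range lay within 10 kb of a called E2F1 or E2F3B peak. Only 9.64% of all unshared E2F3A peaks lay that near, so nothing was read from this.

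Width hardly changed with distance from the other lists. The 106 unshared E2F3A peaks within 10 kb of an E2F1 or E2F3B peak had a median width of 336 bp (315 to 348). The 413 peaks at 10 to 100 kb had 332 bp (327 to 340), the 553 at 100 kb to 1 Mb had 330 bp (324 to 337), and the 28 beyond 1 Mb had 310 bp (276 to 352). These intervals all overlapped.

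Unshared E2F3A peaks reached all 20 chromosomes in the lists, the autosomes and X, at 0.432 per Mb of the span between the outermost peaks. Their density was highest on chromosome 15, at 0.961 per Mb (96 peaks), followed by chromosome 10 at 0.782 per Mb (99 peaks), while the largest number was on chromosome 2, with 112 peaks. Their density was lowest on X, at 0.0815 per Mb (13 peaks), followed by chromosome 7 at 0.161 per Mb (24 peaks). Chromosome 15 thus had 8.73% of the unshared peaks on 3.93% of the span, while chromosome 7 had 2.18% of them on 5.85% of the span. The ratio of the highest to the lowest density was 11.8 for unshared E2F3A peaks and 10.8 for shared ones. It was 8.06 for peaks called for E2F1 only and 6.62 for those called for E2F3B only. The lowest density was on X for all groups but the shared E2F3A peaks, which were sparsest on chromosome 18 (0.0752 per Mb). These ratios thus rest on single sparse chromosomes and do not rank the groups by evenness.

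**Figure D2:**
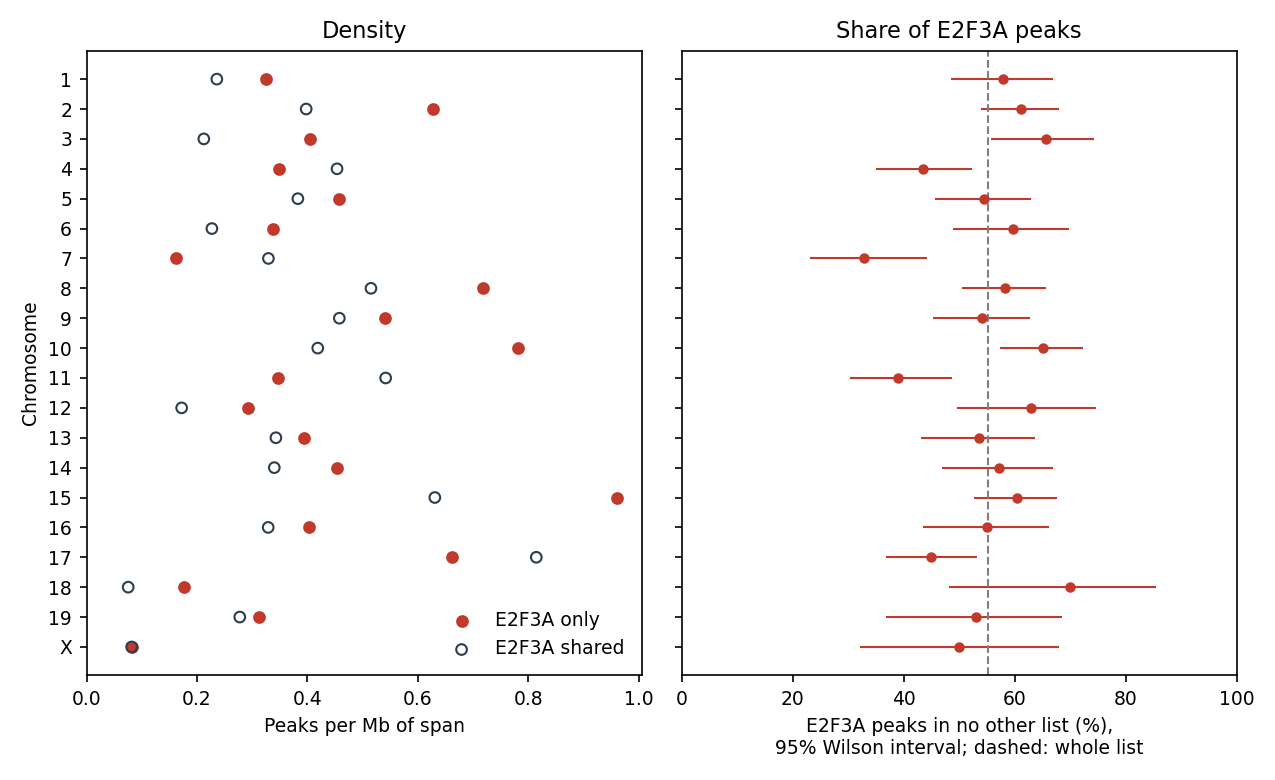
Left, E2F3A peaks per Mb of chromosome span, for peaks called for E2F3A only (filled) and for E2F3A peaks shared with another list (open). Right, the share of each chromosome's E2F3A peaks that were in no other list (%), with 95% Wilson intervals and a dashed line at the 55.1% of the whole list; the intervals of chromosomes 4, 7, 11 and 17 lie below the line and those of chromosomes 3 and 10 above it.

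The share of E2F3A peaks that were unshared differed between chromosomes. It was lowest on chromosome 7, at 24 of 73 or 32.9% (23.2 to 44.3), and on chromosome 11, at 41 of 105 or 39.0% (30.3 to 48.6). It was highest on chromosome 18, at 14 of 20 or 70.0% (48.1 to 85.5), and on chromosome 3, at 63 of 96 or 65.6% (55.7 to 74.4). The interval of chromosome 18 was wide because it held few peaks and included the 55.1% of the whole list, whereas those of chromosomes 7 and 11 lay below it. Chromosomes 4 (43.4%, 35.0 to 52.3) and 17 (44.9%, 36.8 to 53.2) also lay below, and chromosome 10 (65.1%, 57.3 to 72.2) lay above. Most of these chromosomes lay on the same side in the E2F1 and E2F3B lists (55.0% and 59.2% unshared). The E2F1 and E2F3B shares were 41.2% and 53.2% on chromosome 4, 50.4% and 52.5% on 11, and 50.4% and 49.6% on 17. They were 68.1% and 65.8% on chromosome 3, 62.0% and 65.1% on 18, and 61.6% and 56.5% on 10. The differences were thus mostly not seen in the E2F3A list alone. An overlap makes the peaks of both lists shared, so the shares of the 3 lists are linked by the rule.

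Density and share went together on some chromosomes and not on others. Chromosome 7 held 0.161 unshared and 0.329 shared E2F3A peaks per Mb, so its low share came with few unshared peaks. On the same chromosome 47.7% of E2F1 peaks and 49.3% of E2F3B peaks were in no other list, both also below their lists' shares. Chromosome 17 held 0.663 unshared and 0.815 shared E2F3A peaks per Mb, a high density with a low share. Chromosome 10 held 0.782 unshared and 0.419 shared per Mb, high in density and in share. Across the 20 chromosomes the density of unshared E2F3A peaks went with that of shared E2F3A peaks (Pearson r 0.734, Spearman rho 0.750), of peaks called for E2F1 only (0.847 and 0.740) and of peaks called for E2F3B only (0.828 and 0.860). Without chromosomes 10 and 15, r was 0.738, 0.686 and 0.868 in the same order. These coefficients describe the chromosomes of the same 3 libraries and are not tests.

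Along the chromosomes, unshared E2F3A peaks were spread more evenly than shared ones. When each chromosome's span was divided into 5 equal parts, counted from the low coordinates, which in the mouse lie next to the centromere, the parts held 17.4%, 19.9%, 23.2%, 20.2% and 19.4% of the unshared peaks. Of the shared E2F3A peaks, 15.9% lay in the first part and 26.9% in the last. For peaks called for E2F1 only the share rose from 17.7% in the first part to 22.9% in the last, and for E2F3B only from 17.0% to 24.2%. The E2F1-only shares lay within the range of the unshared E2F3A peaks, so such evenness was not particular to the latter. The unshared E2F3A peaks were thus fullest in the middle part, with 255 peaks, and the other 3 groups in the last part.

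Neighbouring unshared E2F3A peaks were far apart. The median gap between consecutive ones was 1.20 Mb (1.10 to 1.31, 1080 gaps), with quartiles of 0.490 and 2.74 Mb. Only 5 of the 1080 gaps (0.463%, 0.198 to 1.08) were within 10 kb, and 71 (6.57%, 5.24 to 8.21) within 100 kb. Among the shared E2F3A peaks, fewer in number, 38 of 878 gaps (4.33%, 3.17 to 5.88) were within 10 kb and 131 (14.9%, 12.7 to 17.4) within 100 kb. The median gap was 0.520 of the mean span per peak for unshared peaks (2.31 Mb) and 0.312 of it for shared peaks (2.83 Mb). Relative to their numbers, unshared E2F3A peaks were therefore less bunched than shared ones. The corresponding ratio was 0.487 for peaks called for E2F1 only and 0.428 for those called for E2F3B only. Several E2F3A peaks can fall on 1 wide peak of another list and then all count as shared. When overlapping E2F1 and E2F3B peaks were merged into regions, 888 regions held an E2F3A peak, for 898 shared E2F3A peaks. The part of this in the difference at short range was not tested.

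The 5 closest pairs were separated by 2.07 kb to 9.78 kb. On chromosome 11 a peak from 94849277 to 94849563 and one from 94851629 to 94851938 were 2065 bp apart, and the nearest peak of another list was 18.8 kb from the pair. On chromosome 15 peaks from 79177693 to 79178081 and from 79180252 to 79180532 were 2170 bp apart, also 18.8 kb from another list. A second chromosome 15 pair, from 49797446 to 49797762 and from 49800711 to 49801041, was 2948 bp apart and 775 kb from any E2F1 or E2F3B peak. The first 2 pairs had called neighbours within 20 kb, and the third pair stood alone. The remaining pairs were on chromosome 14 from 70977299 to 70983975 (gap of 6096 bp) and chromosome 5 from 54740005 to 54750459 (9781 bp). They lay 226 kb and 349 kb from another list, and none of the 5 pairs had a peak of any list between its members.

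The densest stretch of 1 Mb, singled out after the values were seen, lay on chromosome 8. From 61470382 to 62324079 (854 kb) it held 6 unshared E2F3A peaks, of 250 to 372 bp, and 0 peaks of E2F1, 0 of E2F3B and 0 shared E2F3A peaks. The 6 peaks began at 61470382, 61511859, 61640410, 61795593, 62284873 and 62323738. Their gaps to the nearest peak of another list ranged from 587 kb to 1078 kb. No other 1 Mb stretch beginning at an unshared peak held as many.

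At the other extreme, the longest stretches without an unshared E2F3A peak were on X and chromosome 7. On X, 44.0 Mb separated the peak ending at 96664865 from that starting at 140621071, with 18 E2F1, 18 E2F3B and 2 shared E2F3A peaks in between. On chromosome 7, 26.5 Mb lay between 52717381 and 79251804, with 14 E2F1, 24 E2F3B and 3 shared E2F3A peaks. A second X stretch of 24.8 Mb lay between 46543827 and 71330932, with 15 E2F1, 13 E2F3B and 3 shared E2F3A peaks. All 3 stretches held peaks of both other proteins.

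Unshared peaks tended to follow one another along the E2F3A list. Where an unshared peak had a next E2F3A peak on its chromosome, that peak was also unshared in 661 of 1089 cases (60.7%, 57.8 to 63.6). After a shared peak it was unshared in 426 of 889 cases (47.9%, 44.7 to 51.2). Over the whole list 55.1% of E2F3A peaks were unshared, and the share ranged from 32.9% to 70.0% between chromosomes. Such a range can itself place unshared peaks next to one another, and its part in the difference was not tested. The longest unbroken run was 17 unshared peaks over 23.2 Mb of chromosome 15, from 13266961 to 36448537, where 43 E2F1 and 28 E2F3B peaks were also called. The next was 16 peaks over 38.5 Mb of chromosome 12, from 32198451 to 70680912. The longest runs of shared peaks were tighter, with 14 peaks in 5.87 Mb of chromosome 7 and 12 peaks in 1.75 Mb of chromosome 17. These runs were picked out after their lengths were seen.

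Few unshared E2F3A peaks lay beside another E2F3A peak. Within 10 kb there was another E2F3A peak for 25 of 1100 (2.27%, 1.54 to 3.33), against 86 of 898 shared peaks (9.58%, 7.82 to 11.7). Within 1 kb there were 2 unshared peaks, both beside a shared E2F3A peak. They were on chromosome 16 from 18249352 to 18249709 (gap of 281 bp) and chromosome 2 from 154388529 to 154388908 (gap of 655 bp). Unshared E2F3A peaks were therefore mostly separate positions and not the flank of a shared E2F3A peak.

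Most unshared E2F3A peaks were not near misses of the other lists. The median gap was 206 kb (178 to 231) to the nearest E2F1 peak, 177 kb (157 to 204) to the nearest E2F3B peak and 112 kb (99.0 to 128) to the nearer of the 2. Within 500 bp of either list there were 20 peaks (1.82%, 1.18 to 2.79), within 1 kb 26 (2.36%, 1.62 to 3.44) and within 10 kb 106 (9.64%, 8.03 to 11.5). Within 100 kb there were 519 (47.2%, 44.2 to 50.1), and within 1 Mb 1072 (97.5%, 96.3 to 98.2). Peaks called for E2F1 only were within 10 kb of either other list in 11.3% (10.0 to 12.8) and those called for E2F3B only in 12.3% (11.1 to 13.6). Within 500 bp the shares were 2.64% (2.04 to 3.42) and 3.59% (2.96 to 4.35). The E2F3A list is the shortest, so each unshared E2F3A peak faces more peaks of the other lists than an unshared E2F1 or E2F3B peak does. The unshared E2F3A peaks nevertheless had the lowest shares at 500 bp and 10 kb, with intervals that overlapped those of the other lists except that of E2F3B at 500 bp. Within 1 Mb they had the highest share instead. There it was 95.9% (94.98 to 96.69) for peaks called for E2F1 only and 95.6% (94.75 to 96.28) for E2F3B only. Only the E2F3B interval lay apart from that of the unshared E2F3A peaks (96.35 to 98.23).

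**Figure D3:**
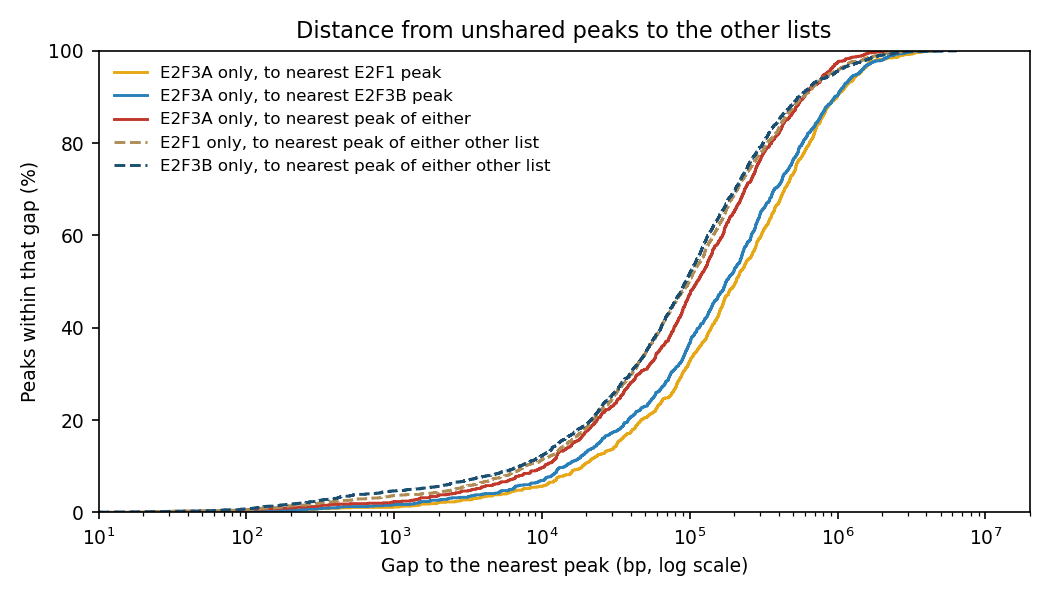
Share of unshared peaks (%) whose nearest peak of another list lies within the gap on the x axis (bp, log scale). Solid lines are the 1100 peaks called for E2F3A only, against E2F1, E2F3B or the nearer of these lists; dashed lines are peaks called for E2F1 only or E2F3B only. Of the E2F3A-only peaks, 9.64% lie within 10 kb and 47.2% within 100 kb of another list.

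Neither other list was clearly the nearer one. The nearest peak belonged to E2F3B for 550 of the 1100 (50%, 47.1 to 52.9) and to E2F1 for 549 (49.9%, 47.0 to 52.9). One peak, on chromosome 19 from 53884567 to 53884789, was equally far from both, at 134 kb. E2F3B supplied 4704 of the 8491 peaks of the other lists (55.4%), which lies above that interval. Within 10 kb, 32 peaks had both an E2F1 and an E2F3B peak, 30 had E2F1 alone and 44 had E2F3B alone. Gaps were taken to peak edges, and E2F1 peaks were wider than E2F3B peaks (median 605 against 356 bp). Where both were called at the same place, the E2F1 edge can be the nearer one for that reason. The near-equal counts therefore do not show whether unshared E2F3A peaks lay closer to the other isoform, which was precipitated with the same antibody.

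The nearest neighbour was usually a region called for a single protein. When overlapping E2F1 and E2F3B peaks were merged into 6756 regions, the nearest was an E2F3B-only region for 479 unshared E2F3A peaks (43.5%, 40.6 to 46.5) and an E2F1-only region for 393 (35.7%, 32.9 to 38.6). These classes made up 41.2% and 30.8% of the merged regions. A region called for E2F1 and E2F3B without E2F3A was nearest for 107 (9.73%, 8.11 to 11.6), against 14.8% of regions. A region that also held an E2F3A peak was nearest for 121 (11%, 9.28 to 13.0), against 13.1% of regions. The share of E2F1-only regions among the nearest was thus above their share of all regions, and those of both shared classes were below, while the interval for E2F3B-only regions held their share of all regions. Among the 106 within 10 kb the corresponding shares were 42.5%, 27.4%, 16.0% and 14.2%, and each interval held the share of all regions. The shares of all regions pool the chromosomes. Chromosomes 10 and 15, densest in unshared E2F3A peaks, held 1.61 and 2.07 E2F1-only peaks per Mb, against 0.818 over all chromosomes. Whether the differences held within chromosomes was not tested, so no local preference was read from them.

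The surroundings differed between unshared and shared E2F3A peaks even beyond their immediate position. Counting merged E2F1 or E2F3B regions between 10 and 500 kb away, which leaves out any region that decided the overlap, unshared peaks had a median of 3 (quartiles 1 and 6) and shared peaks a median of 5 (3 and 9). There were 154 unshared peaks (14.0%, 12.1 to 16.2) with 0 such regions, against 32 shared peaks (3.56%, 2.54 to 4.99). The median was lower for unshared peaks on 19 of 20 chromosomes. The exception was chromosome 18, with medians of 1.5 and 0.5 for 14 unshared and 6 shared peaks.

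The share of E2F3A peaks that were unshared fell steadily as nearby regions became more numerous. It was 82.8% (76.7 to 87.5) with 0 regions, 68.4% (64.2 to 72.2) with 1 or 2, and 55.0% (50.3 to 59.7) with 3 or 4. It was 48.2% (43.4 to 53.0) with 5 to 7 regions, 40.2% (34.3 to 46.3) with 8 to 11 and 29.2% (23.4 to 35.7) with 12 or more. The median width of the unshared peaks stayed between 316 and 340 bp across these classes, and that of shared peaks between 352 and 374.5 bp. With 4 or fewer nearby regions, the median of all E2F3A peaks, 65.7% (62.9 to 68.4) were unshared, against 41.4% (38.1 to 44.6) with more. The other lists went the same way when divided at their own medians. E2F1 peaks were unshared in 62.1% (60.1 to 64.1) and 44.7% (42.2 to 47.2), and E2F3B peaks in 63.6% (61.8 to 65.4) and 53.6% (51.4 to 55.7). The pattern was therefore seen in all 3 lists, whose shares are linked because an overlap makes the peaks of both lists shared.

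**Figure D4:**
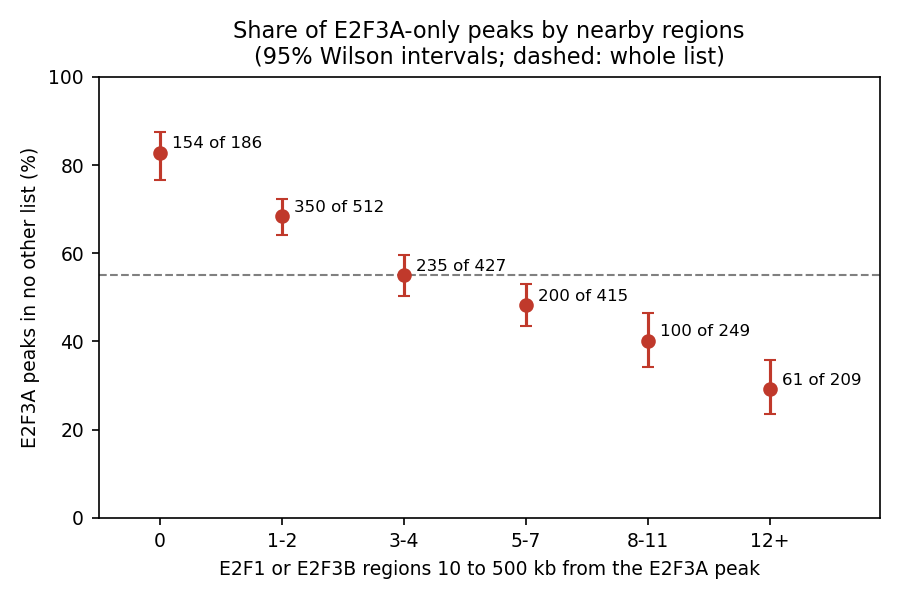
Share of E2F3A peaks that were in no other list (%), by the number of merged E2F1 or E2F3B regions 10 to 500 kb away, with 95% Wilson intervals and the number of unshared peaks of all E2F3A peaks in each class; the dashed line is the 55.1% of the whole list. The share falls from 82.8% with 0 regions to 29.2% with 12 or more.

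The 5 unshared E2F3A peaks farthest from any other list were on X and chromosomes 1, 2 and 16. The farthest, on X from 80156431 to 80156640 (210 bp), was 2.87 Mb from the nearest E2F3B peak and 3.34 Mb from the nearest E2F1 peak. On chromosome 2 the peak from 41501025 to 41501393 (369 bp) was 2.58 Mb from both lists, and a second one from 42890465 to 42890740 (276 bp) was 1.70 Mb from E2F3B. On chromosome 1 the peak from 102581671 to 102582022 (352 bp) was 2.45 Mb from E2F3B and 3.96 Mb from E2F1. On chromosome 16 the peak from 61400250 to 61400511 (262 bp) was 1.80 Mb from E2F3B. These 5 had widths within the range of the other unshared peaks, at 210 to 369 bp. In all, 28 of the 1100 were over 1 Mb from either list.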

How the data were processed

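Peak lists of 3 ChIP-seq samples were used, 1 per overexpressed protein, grouped by the genotype in the labels. Per the submitters' processing notes, Bowtie2, SAMtools and mm9 were used, without versions. The deposited lists give the chromosome, start and end of each peak, and per the file headers no score, p-value, fold or read count. Peak names carry the name of the caller MACS. The sources used here do not give its control, threshold or handling of duplicates. Per the labels' protocols, libraries of 200 to 300 bp were made with 14 PCR cycles. Depth was unknown. Starts were taken to count from 0, and 1 was added for printing.

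Overlap means at least 1 bp. Gaps are between peak edges. Densities use the span from the outermost peaks of any list on a chromosome. Shares have 95% Wilson intervals and medians 95% binomial order-statistic intervals. Named regions followed a rule: extremes of width, gap, overlap, distance and spacing, and of density and share by chromosome. Exceptions are stated. The regions, rule and measures were chosen with earlier results of these data known. Alternatives were 50% reciprocal overlap, centres within 100 bp, gaps up to 500 bp, the 50% widest E2F3A peaks and leaving out X. A common width and other ranges for nearby regions were added after seeing the data. Functions were tested on simulated data and the count of unshared peaks was checked with bedtools 2.31.1. Python 3.11.15, numpy 2.4.6, pandas 2.3.3 and scipy 1.17.1 were used.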

Additional observations from a re-analysis of the deposited data

How the results depend on the processing

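Of 64 values recomputed over 8 alternatives, 38 stayed within the interval of the reported value (for the number of peaks, within 1.5 times) and 26 did not. With 50% reciprocal overlap or centres within 100 bp as the criterion, E2F3A peaks that overlap another list less closely became unshared, for 1252 and 1263 peaks. Their density was then 0.492 and 0.496 per Mb, the median spacing 1.07 and 1.05 Mb, the median gap to E2F1 161 and 160 kb and to E2F3B 137 and 134 kb. The share within 10 kb of another list rose to 20.6% and 21.3%, since overlapping peaks count as near, and the share within 10 kb of another E2F3A peak was 3.35% and 3.64%. The unshared share was 71.4% and 71.3% among peaks with few nearby regions and 51.4% and 52.8% among those with many. Counting gaps of up to 500 bp as shared left 7.96% within 10 kb of another list. The 50% widest E2F3A peaks held 473 unshared peaks of median width 365 bp, at 0.186 per Mb, a spacing of 2.37 Mb and 1.06% within 10 kb of another E2F3A peak, with unshared shares of 58.7% and 33.8%. Without X the density was 0.456 per Mb. Counting regions 10 to 100 kb away, chosen after seeing the data, gave 61.4% with few regions. Under every alternative run, the unshared share was higher with few nearby regions than with many. No paired analysis was possible because each protein had 1 library. The missing read counts limit what an unshared peak shows.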

Other observations

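The peak names of the E2F3A list are numbered from 1 to 2008, and 10 of these numbers belong to no peak in the list as used here. The corresponding figures were 3803 and 16 for E2F1, and 4716 and 12 for E2F3B.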
